A study of Mus musculus with 16 samples.

Results

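The response of macrophages to lipopolysaccharide (LPS) was measured as the difference between 4 arrays of cells that had received LPS at 10 ng/mL for 8 h and 4 control arrays of untreated cells at 0 h. These 8 arrays were taken from a set of 16 by their titles. The other 8 arrays carry cells given heme-albumin at 50 or 200 µM and entered only the estimate of the spread and a closing comparison. The cells were murine macrophages derived from stem cells, and the kind of stem cell, the strain and the way the macrophages were derived are not given in the sources used here. Every array was hybridised with 2 RNAs, the sample labelled with Cy5 (red) and an untreated reference labelled with Cy3 (green), so that a control array compared untreated RNA with untreated RNA. Replicates are lettered a to d and are described as independent biological replicates, and all 4 arrays of a letter lay on 1 slide. The control cells were collected at 0 h, so the effect of LPS and that of 8 h in culture cannot be told apart. On every slide the LPS array had position 1 and the control array position 4, so position and treatment cannot be told apart either.

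LPS is a glycolipid of the outer membrane of Gram-negative bacteria that macrophages recognise through CD14 and the receptor complex of TLR4 and MD2. The receptor signals through adaptor proteins to NF-kB, to MAP kinases with their AP-1 factors, and to interferon regulatory factors. Beside cytokines and interferon-stimulated genes, which are not the subject here, macrophages are known to answer with changes in metabolism, surface receptors, adhesion, feedback inhibitors and the cytoskeleton.

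The value of a gene on an array is the log2 ratio of sample over untreated reference, and the difference is the mean log2 ratio of the 4 LPS arrays minus that of the 4 control arrays, given ± its standard error (SE) from a limma fit. A gene was called when its Benjamini-Hochberg adjusted p was under 0.05 and its difference at least 2-fold, that is a log2 difference of at least 1, and "rose" and "fell" are used of called genes alone. Of 39429 probes 16.9% were called, 8.38% higher and 8.54% lower. For genes, each described by its brightest probe, 12398 had a probe whose red signal stood well above background on all 4 LPS arrays or on all 4 control arrays. Of these, 30.8% were called, 14.4% (1783 genes) higher and 16.4% (2039) lower, and the median over all 12398 was -0.080. The log ratios of both groups did not overlap for 73.5% of genes, and 379 genes were at least 8-fold higher and 184 at least 8-fold lower. The count in a group of genes is read below against 14.4% and 16.4%. The lists were drawn up with earlier results of these data known, so their shares describe the lists and are no test.

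Both groups carried macrophage RNA. All 21 macrophage markers on the array were measured, 6 rose and 3 fell, and their summed red signal ranged from 469000 to 551000 on the LPS arrays and from 400000 to 418000 on the control arrays. The Fc receptor gene Fcgr1 (3.14 ± 0.056), the LPS co-receptor Cd14 (2.67 ± 0.22, without outlier spots on LPS array a and control array a) and the scavenger receptor Msr1 (2.14 ± 0.070) rose. Cebpa (-3.0 ± 0.15), a transcription factor of myeloid identity, and the fractalkine receptor Cx3cr1 (-1.99 ± 0.18, another probe -0.93) fell. Among markers of other cell types Col1a1 and Pdgfra of fibroblasts, Ms4a1, Cd79a and Cd8a of lymphocytes, Kit, Cpa3 and Fcer1a of mast cells, Xcr1 and Cd209a of dendritic cells, Tie1 and Emcn of endothelium, Prtn3 and Retnlg of neutrophils, and Pou5f1 and Sox2 of embryonic stem cells were below background on every LPS and control array. Other markers of these lists were measured, and all but the lymphocyte list held called genes. Of 4 measured fibroblast markers, Dcn (at least 12.1-fold higher) and Pdgfrb (3.4 ± 0.40, 2 of 4 control arrays above background) rose. Of 5 endothelial markers, Kdr (2.47 ± 0.14, another probe 0.47), Cdh5 (2.1 ± 0.23, 3 of 4 control arrays above background), Pecam1 (1.59 ± 0.18) and Eng (1.34 ± 0.070) rose and Vwf (-1.29 ± 0.059) fell. With normexp, another background correction, Cdh5 was at 0.94 and Pecam1 at 0.78, and neither was called. The neutrophil markers Camp (2.19 ± 0.32) and S100a8 (1.56 ± 0.21) rose among 4 measured, and Bst2 (2.21 ± 0.085, without an outlier spot on LPS array a) and Ccr7 among 5 of dendritic cells. The stem cell markers Nanog, Utf1, Lin28a and Tdgf1 were above background on all 8 arrays and not called, while Klf4 fell (-1.97 ± 0.31). Another probe of Tdgf1 gave 3.4. Summed signal of the dendritic cell list was 93800 to 126000 after LPS and 43600 to 48600 in control. That of the mast cell list was 9720 to 11600 against 85.8 to 108, with Hdc alone called (4.07 ± 0.43, 2 of 4 control arrays above background), and that of the fibroblast list was 527 to 648 against 203 to 292. Neutrophil sums were 4180 to 8550 and 3980 to 6520, lymphocyte sums 2260 to 3150 and 1960 to 3010, endothelial sums 6170 to 9310 and 5580 to 6510, and embryonic stem cell sums 925 to 1870 and 3260 to 3480. The part of any other cell type in the changes below was not tested, and in RNA of a whole culture fewer cells of a type and less RNA per cell cannot be told apart. Between 50.1% and 58.6% of probes were well above background in red on the 8 arrays, no spot was saturated, and outlier spots, which were left out, were most frequent on LPS array a (690).

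Cytokine, chemokine, interferon and cell cycle genes were set aside by patterns of gene symbols. The patterns missed some, such as the chemokine gene Ppbp and the mitosis gene Sgo1, which are named below. Outside the patterns 11891 genes were measured, and 29.3% of them were called, 13.6% higher and 15.7% lower. The genes ranked first by size were those well above background on all 8 arrays whose LPS and control log ratios did not overlap. Genes dimmer in 1 group, some with larger differences, are given with bounds or in their lists below. The largest increases among the ranked genes were spread over surface proteins, enzymes and secreted proteins. Cd69, a membrane lectin of early leukocyte activation, led them. Its log2 ratio was 7.32, 7.67, 8.48 and 8.24 on LPS arrays a to d and 0.46, -0.086, 0.055 and 0.54 on control arrays a to d, a difference of 7.68 ± 0.22 or 205-fold (adjusted p = 5.6e-12). Gpr84, a receptor for medium-chain fatty acids, had 7.37, 7.46, 6.69 and 6.73 after LPS and 0.15 to 0.44 in control, a difference of 6.77 ± 0.19 (adjusted p = 3.9e-12). The lowest LPS array lay more than 6 log2 units above the highest control array for both genes.

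The acute-phase apolipoprotein Saa1 had log2 ratios of 6.26, 6.21, 6.46 and 6.41 on the LPS arrays against -0.077 to 0.12 in control (6.34 ± 0.067). Acod1 encodes the mitochondrial enzyme that makes itaconate from cis-aconitate, and its ratio was 6.38, 6.2 and 6.31 on LPS arrays b to d and -0.0040 to 0.16 in control, 75-fold higher, without LPS array a, where its spot was an outlier. The small peptide-coding gene AA467197 (Nmes1) rose by 5.99 ± 0.12 (without an outlier spot on LPS array a) and the adenosine receptor Adora2b by 5.71 ± 0.16. For each of these 4 genes the LPS arrays lay close together and far above the control arrays.

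Spread among the LPS arrays was wider for some others. I830077J02Rik, a gene known by its clone name, had 4.65, 4.55, 6.4 and 6.23 after LPS, so that arrays c and d were higher than a and b, and -0.70 to 0.25 in control (5.66 ± 0.39). Spic, a factor of the ETS family known from red pulp macrophages, had 5.9, 6.09, 5.04 and 5.34 (5.66 ± 0.22), Flrt3, a leucine-rich guidance protein, 6.02, 5.79, 5.01 and 4.61 (5.47 ± 0.24), and Lhx2, a LIM homeodomain factor, 4.22, 4.18, 6.0 and 5.84 (5.09 ± 0.36). No LPS array overlapped the control arrays in these 4 genes, as the ranking required.

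The remaining increases in the leading 20 were the collagenase Mmp13 (5.56 ± 0.088), the organic anion carrier Slco3a1 (5.54 ± 0.086), the prothrombinase-like Fgl2 (5.47 ± 0.13), uridine phosphorylase Upp1 (5.42 ± 0.10), complement C3 (5.18 ± 0.046, without an outlier spot on LPS array a), the NAD-consuming ectoenzyme Cd38 (5.16 ± 0.20), inducible nitric oxide synthase Nos2 (5.09 ± 0.17), Abtb2 (5.04 ± 0.30), the phosphatase Dusp2 (5.0 ± 0.24) and the channel protein Calhm6 (4.92 ± 0.17). The largest adjusted p among the 20 was 4.4e-08.

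The largest decreases among genes above background on all 8 arrays were spread over signalling, lipid and sugar-modifying genes. Rasgrp3, a guanine nucleotide exchange factor that links diacylglycerol to Ras and Rap, had log2 ratios of -5.74, -5.62, -5.34 and -5.21 on LPS arrays a to d and 0.041 to 0.20 in control, 48-fold lower (-5.58 ± 0.14, adjusted p = 1.5e-12). Abhd15, a gene of lipolysis control, fell 28.4-fold (-4.83 ± 0.12). Bmf, a pro-apoptotic protein of the BH3-only class, had -4.2, -4.2, -4.67 and -4.69 after LPS and 0.23 to 0.41 in control (-4.72 ± 0.13). The 4 LPS values of each gene stood well apart from the control values, which lay near 0.

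St6gal1, which adds sialic acid to galactose, fell (-4.63 ± 0.11) in its brightest probe, while another probe gave -1.04. The Wnt pathway protein gene Frat1 fell (-4.51 ± 0.23), the co-stimulatory receptor Cd28 (-4.46 ± 0.14), the voltage-gated channel subunit Tmem37 (-4.41 ± 0.12), and the ubiquitin ligase Peli2 of the Toll-like receptor pathway (-4.35 ± 0.23). Angptl4, a secreted inhibitor of lipoprotein lipase, had -3.9, -3.94, -4.12 and -4.07 after LPS (-4.18 ± 0.070). Prkag2, a regulatory subunit of AMP-activated kinase, had -3.75, -3.73, -4.44 and -4.49 (-3.94 ± 0.15), with arrays c and d lower than a and b. The other members of the 20 were Nanos1, Rnf150, Tmem144, Kctd12b, Sgo1, Fam214a, Reps2, Gcnt1, Enc1 and Pald1, between -4.23 (Nanos1) and -3.62 (Pald1), and Rnf150 had another probe at -1.37. The largest adjusted p among the 20 was 4.9e-09.

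**Figure D1:**
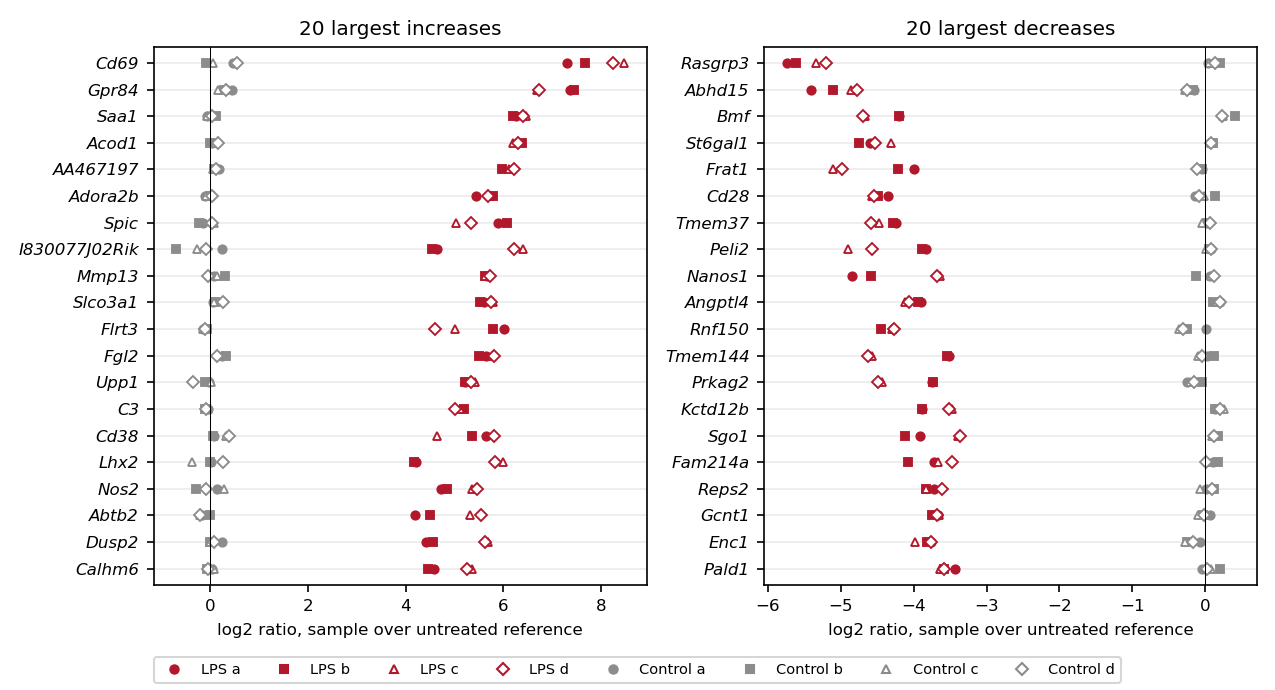
Log2 ratio of sample over untreated reference (horizontal axis) on each of the 4 LPS arrays (red) and 4 control arrays (grey) for the 20 genes with the largest increase (left) and the 20 with the largest decrease (right) among genes well above background on all 8 arrays, 1 gene per row; filled symbols are replicates a and b and open symbols c and d. LPS points run up to 7.68 above control in the mean of Cd69 and down to -5.58 in Rasgrp3. In no row do the groups overlap, because genes whose groups overlapped were not ranked.

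For 150 genes the signal passed background on all 4 LPS arrays and on no control array, and 148 of them were called. Here only a lower bound can be given, from red signal alone: the mean of the bright group over the lowest signal that counts as above background on the dim arrays, or over the dim probe's own signal where that was higher. Where the log ratios gave a smaller fold than red signal, that smaller fold is printed as the bound, a choice made after both had been seen. The bounds hold for the main processing alone. Some genes given with one changed less than 2-fold with normexp correction and are listed at the end. Ptgs2, the inducible cyclooxygenase, was at least 889-fold higher, Serpinb2, the plasminogen activator inhibitor of macrophages, at least 579-fold, Serpina3f at least 37.8-fold and the membrane-bound metalloproteinase Mmp14 at least 70.9-fold. Edn1, the precursor of endothelin, was at least 86.8-fold higher, with log2 ratios of 6.28, 6.3, 6.6 and 6.52 on the LPS arrays. Among the 20 largest bounds in red signal were further secreted proteins, Fam3b (at least 62.5-fold), Angpt1 (at least 62.9-fold), the endothelial lipase Lipg (at least 28.7-fold) and the neuropeptide precursor Vgf (at least 16.3-fold). The others were Gfi1, a zinc-finger repressor of myeloid cells (at least 35.4-fold), Rasgrp1, Shisa3, Mmp25, Tcp10a, Serpina3i, Gstt4, Zfp811, Gpr18, Macc1 and Adamts4 (at least 26.4-fold). All 20 were brighter after LPS. In the opposite direction 81 genes were above background on all control arrays and on no LPS array, and 79 of these were called.

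The promoters of these genes are shown because the transcription factors that LPS engages are known to bind short motifs, and the letters let a reader see which of the leading genes carry one. Promoters were the 250 bases before the RefSeq start of 9961 of the 12398 genes (build GRCm38.p6), searched on both strands, and matches of different motifs were counted separately whether or not they overlapped. An AP-1 motif, TGANTCA, stood in 14.5% of promoters of genes at least 8-fold higher (42 of 290), in 7.45% of all genes called higher, in 3.81% of genes called lower and in 4.15% of genes not called, against 6.87% of all 27025 promoters. The interferon response motif GAAANNGAA stood in 17.2% (50 of 290), 10.1%, 4.79% and 6.27% of the same groups, against 7.16% of all promoters. The NF-kB motif GGNNNTTCC stood in 23.8% (69 of 290), 18.6%, 17.1% and 18.7%, against 15.6%. Both of the latter were first searched with 1 further fixed base, an A at the end of the interferon motif and a G in front of the NF-kB motif, and were shortened after those shares had been seen. In the longer form the interferon motif stood in 12.1% (35 of 290), 6.54%, 1.78% and 2.39% and the NF-kB motif in 11.7% (34 of 290), 6.82%, 4.73% and 5.06%, against 3.04% and 4.6% of all promoters, so the NF-kB shares differ more between the groups in that form. Outside the symbol patterns of cytokine, chemokine, interferon and cell cycle genes, 223 promoters belonged to genes at least 8-fold higher. They held the AP-1 motif in 13.9%, the interferon motif in 10.8% (6.28% in the longer form) and the NF-kB motif in 19.7% (8.52%). Of 4 further motifs, CACGTG (an E-box) was in 6.96% of genes called higher and 8.42% of those called lower, TTTNNCGC (E2F) in 5.06% and 7.92%, TGACGTCA (CRE) in 2.67% and 2.4%, and CCAAT in 34.2% and 39.7%. These shares describe letters in a window, not binding.

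The leading increases with an AP-1 motif were AA467197, Mmp13, Fgl2 and Upp1, shown with up to 25 bases on either side, 5′ to 3′ on the gene's strand, and with the motif in capitals. They lie at chr2:122637789-122637845 (plus strand), chr9:7272454-7272510 (plus), chr5:21372632-21372672 (plus) and chr11:9117938-9117994 (plus), where the motif stood 73, 35, 16 and 45 bases before the start. The same motif stood before Serpinb2, which was below background in control, at chr1:107511304-107511360 (plus strand).
AA467197: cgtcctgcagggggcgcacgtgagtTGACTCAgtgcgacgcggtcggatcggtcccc
Mmp13: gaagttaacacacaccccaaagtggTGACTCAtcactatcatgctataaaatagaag
Fgl2: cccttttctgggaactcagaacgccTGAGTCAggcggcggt
Upp1: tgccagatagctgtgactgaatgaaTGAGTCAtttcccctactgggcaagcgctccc
Serpinb2: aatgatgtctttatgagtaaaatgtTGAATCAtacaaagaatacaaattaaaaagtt
Calhm6 at chr10:34128003-34128061 (minus strand) and I830077J02Rik at chr3:105932743-105932801 (minus strand) carried the interferon response motif. Acod1 at chr14:103046902-103046960 (plus strand, a match on both strands), Flrt3 at chr2:140671648-140671706 (minus strand), Serpina3i at chr12:104262944-104263002 (plus strand) and Gstt4 at chr10:75822544-75822577 (minus strand, a match on both strands) carried the NF-kB motif, of which those of Serpina3i and Gstt4 also matched the longer form.
Calhm6: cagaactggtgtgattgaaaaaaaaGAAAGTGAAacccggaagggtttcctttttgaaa
I830077J02Rik: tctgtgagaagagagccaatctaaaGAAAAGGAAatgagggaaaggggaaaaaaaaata
Acod1: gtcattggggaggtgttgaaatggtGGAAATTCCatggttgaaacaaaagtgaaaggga
Flrt3: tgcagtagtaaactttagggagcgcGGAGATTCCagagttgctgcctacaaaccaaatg
Serpina3i: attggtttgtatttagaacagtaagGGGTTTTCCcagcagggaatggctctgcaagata
Gstt4: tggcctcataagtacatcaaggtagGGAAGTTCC
Among the largest decreases the single match counted for these 3 motifs was in Tmem37, at chr1:120073852-120073908 (minus strand).
Tmem37: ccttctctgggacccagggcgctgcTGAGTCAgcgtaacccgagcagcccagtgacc
In all, 8 of the 17 largest increases with a promoter in the table, 1 of 15 decreases and 9 of 15 genes with a bound had a match to at least 1 of the 3 motifs, as had 27.2% of all promoters and of those of genes not called. Matches in genes of 1 chromosome were left out of these counts, but such genes stayed in the totals and in the 27.2%. Tmem37 fell to a log2 ratio of -4.25, -4.28, -4.47 and -4.58 on the LPS arrays, so the same letters TGAGTCA stood before genes that moved in opposite directions, Fgl2 and Upp1 among the increases and Tmem37 among the decreases.

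Surface receptors of the lectin and paired immunoglobulin classes shifted mainly upwards. These receptors bind glycans or other membrane proteins and set the threshold of activation through activating or inhibitory motifs. Of the sialic acid lectins, CD300 and related receptors, 25 of 50 measured genes rose and 6 fell (median 1.02). Cd200, the ligand of an inhibitory receptor on myeloid cells, rose from 0.11 to 0.76 in control to 6.21, 5.85, 7.06 and 6.84 on LPS arrays a to d (5.96 ± 0.44, 3 of 4 control arrays above background). Slamf1, a self-ligand that also recognises bacterial outer membrane proteins, was at least 18.6-fold higher, and Slamf7 (3.7 ± 0.15), the inhibitory Pilra (3.42 ± 0.12) and the activating Trem3 (3.26 ± 0.28, 3 of 4 control arrays above background) rose. The decreases were Vsir, an inhibitory checkpoint receptor also known as VISTA (-2.25 ± 0.068), Cd300lb (-1.77 ± 0.13), the checkpoint receptor Havcr2 (-1.47 ± 0.047), the lipid sensor Trem2 (-1.36 ± 0.088, without outlier spots on LPS array a and control array a) and Cd22 (-1.08 ± 0.13). With red signal alone Trem2 was at -0.81 and neither Trem2 nor Cd22 was called, and Cd22 was at -0.76 without background subtraction.

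G protein-coupled receptors moved both ways and by large amounts: of 57 measured genes, 22 were called higher and 16 lower (median 0.30). Receptors for chemokines, metabolites and formyl peptides were prominent among the increases. Ccr7, which guides cells to lymph nodes, had 5.26, 6.33, 7.25 and 7.35 on the LPS arrays (6.44 ± 0.42, 1 of 4 control arrays above background), so array a was lowest and c and d highest. The nicotinic acid and ketone body receptor Hcar2 had 5.39, 5.41, 5.63 and 5.51 (5.8 ± 0.17, 3 of 4 control arrays above background, another probe 2.65) and the formyl peptide receptor Fpr2 5.83, 5.9, 5.71 and 5.65 (5.59 ± 0.15, 3 of 4 control arrays above background). The groups did not overlap for either gene, which was required of called genes named from the lists.

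The largest decreases were in receptors for lipids, nucleotides and a chemokine. Gpr34, a lysophosphatidylserine receptor, fell from -0.10 to -0.0012 in control to -7.34, -7.44, -5.07 and -5.2 (-6.21 ± 0.46, 1 of 4 LPS arrays above background), lower on arrays a and b than on c and d. The ADP receptor P2ry1 (-3.65 ± 0.083, 3 of 4 LPS arrays above background), the chemokine receptor Cxcr4 (-3.51 ± 0.19), the oxysterol receptor Gpr183 (-2.87 ± 0.089) and the prostaglandin receptor Ptger3 (-2.33 ± 0.31, 3 of 4 LPS arrays above background) also fell. The oxysterol synthase Ch25h, which feeds the Gpr183 ligand pathway, went the other way, from 0.0031 to 0.41 to 3.52, 3.87, 5.11 and 5.08 (4.21 ± 0.43). The UDP receptor P2ry6 (0.68 ± 0.043) was bright and not called.

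Adhesion molecules moved in both directions. In the list of integrins and adhesion molecules 14 of 36 measured genes rose and 5 fell (median 0.50). Vcam1, a ligand of integrin alpha-4, had 5.83, 6.93, 6.9 and 6.25 on the LPS arrays against 0.25 to 0.69 in control (5.97 ± 0.35, 3 of 4 control arrays above background, another probe 4.42). Icam1 rose by 3.0 ± 0.12 and integrin alpha-5 (Itga5), the fibronectin receptor chain, by 2.37 ± 0.11, and Itgb8 was at least 5.93-fold higher. Integrin alpha-6 (Itga6), a laminin receptor chain, fell 6.67-fold (-2.74 ± 0.14), and the vitronectin receptor chains Itgb5 (-2.11 ± 0.068, without an outlier spot on control array a) and Itgb3 (-2.02 ± 0.15), Emb (-1.72 ± 0.10) and Icam2 (-1.12 ± 0.038) fell as well. The tetraspanins Cd63 (-0.39 ± 0.073, without an outlier spot on LPS array a), Cd81 (-0.52 ± 0.056) and Cd9 (-0.97 ± 0.058) were not called.

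Of guidance molecules and their receptors 11 of 30 measured genes rose and 7 fell (median 0.23). Beside Flrt3, the semaphorin Sema7a was at least 7.03-fold higher, and Sema4c (2.24 ± 0.10, without outlier spots on LPS array a and control array a), the co-receptor Nrp2 (2.24 ± 0.086) and Flrt2 (1.83 ± 0.060) rose. Efna1, the ephrin ligand, was at least 10.9-fold lower, and its receptor Epha2 fell (-3.19 ± 0.19, 3 of 4 LPS arrays above background). The semaphorin receptors Plxna2 (-3.45 ± 0.18) and Plxnc1 (-2.04 ± 0.092), the latter a receptor of Sema7a, fell too. The repulsive guidance molecule receptor Neo1 fell as well (-1.63 ± 0.096, 3 of 4 LPS arrays above background), but with normexp correction it was at -0.56 and not called. In the Notch and Wnt pathways 9 of 42 measured genes rose and 10 fell (median -0.14). The Notch ligand Dll1 was at least 6.43-fold higher while the ligand Jag2 fell (-2.85 ± 0.29, 3 of 4 LPS arrays above background), and the receptor Notch4 (-3.4 ± 0.063), the Notch glycosyltransferase Mfng (-2.87 ± 0.058), the corepressor Tle1 (-2.85 ± 0.13, another probe 0.041) and the Notch target Hey1 (at least 5.62-fold lower) fell.

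The exchange factors that link diacylglycerol to Ras moved in opposite directions. Rasgrp1, below background on all control arrays, had log2 ratios of 5.13, 5.11, 5.39 and 5.4 on the LPS arrays and was at least 45.3-fold higher, whereas Rasgrp3 was 48-fold lower. Across the list of phosphoinositide and diacylglycerol signalling 13 of 46 measured genes rose and 7 fell (median 0.11). Diacylglycerol kinases split in the same manner, with Dgkh higher (2.56 ± 0.10) and Dgkd lower (-2.08 ± 0.14), and the inositol phosphatase Inpp5b (2.42 ± 0.19, without an outlier spot on LPS array a) and the kinase adaptor Pik3ap1 (2.06 ± 0.13) rose. The lipid kinase Pikfyve (-1.43 ± 0.19) and the protein kinase C genes Prkch (-1.25 ± 0.11) and Prkcb (-1.16 ± 0.14) fell. Prkcb was not called with normexp correction (-0.97), without background subtraction (-0.97), with red signal alone (-0.98), in replicates a and b alone (-0.97) or as the median over its probes (-0.83).

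Genes of cyclic AMP and G protein signalling also moved both ways, and 12 of 52 measured genes rose and 12 fell (median -0.057). The scaffold Akap12 had 3.54, 3.25, 4.59 and 4.56 on the LPS arrays (3.89 ± 0.25), the Rap exchange factor Rapgef2 3.64, 3.4, 4.45 and 4.44 (3.85 ± 0.19) and the phosphodiesterase Pde4b 3.29, 3.53, 3.02 and 3.84 (3.4 ± 0.16). Arrays c and d were above a and b for Akap12 and Rapgef2. Pde3b, a phosphodiesterase that is inhibited by cyclic GMP, fell evenly, to -3.34, -3.28, -3.16 and -3.19 (-3.35 ± 0.14), as did Rgs10 (-2.15 ± 0.040), a GTPase activator that is abundant in myeloid cells. Arrestin Arrb1 had -1.86, -1.75, -3.28 and -3.4, with c and d far below a and b (-2.64 ± 0.31). Adenylyl cyclase Adcy9 fell (-1.92 ± 0.12), and the G protein subunit Gnas (-0.27 ± 0.076) was not called.

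Kinases and adaptors of the immunoreceptor type rose more often than they fell, and of them 16 of 56 measured genes rose and 4 fell (median 0.34). Jak2 rose from -0.051 to 0.081 to 3.38, 3.29, 3.47 and 3.63 (3.42 ± 0.064), the adaptor Lcp2 by 3.17 ± 0.14 and the Src family kinase Lck by 2.93 ± 0.14. The adaptor Sh2d1b1 (-3.32 ± 0.12) and the phosphatases Ptpn18 (-1.53 ± 0.059), Ptpra (-1.45 ± 0.085) and Ptpn22 (-1.44 ± 0.21) fell. In the MAP kinase cascade 11 of 61 measured genes rose and 8 fell (median 0.030), with the inhibitors Spred1 (2.79 ± 0.31) and Spry1 (at least 2.32-fold), the kinase Map3k8 (2.44 ± 0.23), which acts downstream of TLR4, and Mapkapk2 (2.27 ± 0.079) higher, and the nucleosome kinase Rps6ka5 (-2.43 ± 0.11) and Rasa3 (-2.17 ± 0.080) lower. Among kinases of metabolism and survival 8 rose and 13 fell among 62 measured (median -0.095). The Toll pathway inhibitor Irak3 (2.84 ± 0.10), Ripk2 (2.65 ± 0.27), Pim1 (2.63 ± 0.13) and Ikbke (2.52 ± 0.074) rose. Deptor, an inhibitor of mTOR (-2.96 ± 0.11), Sik1 (-2.53 ± 0.22) and Sesn1 (-2.1 ± 0.077) fell together with Prkag2.

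**Figure D2:**
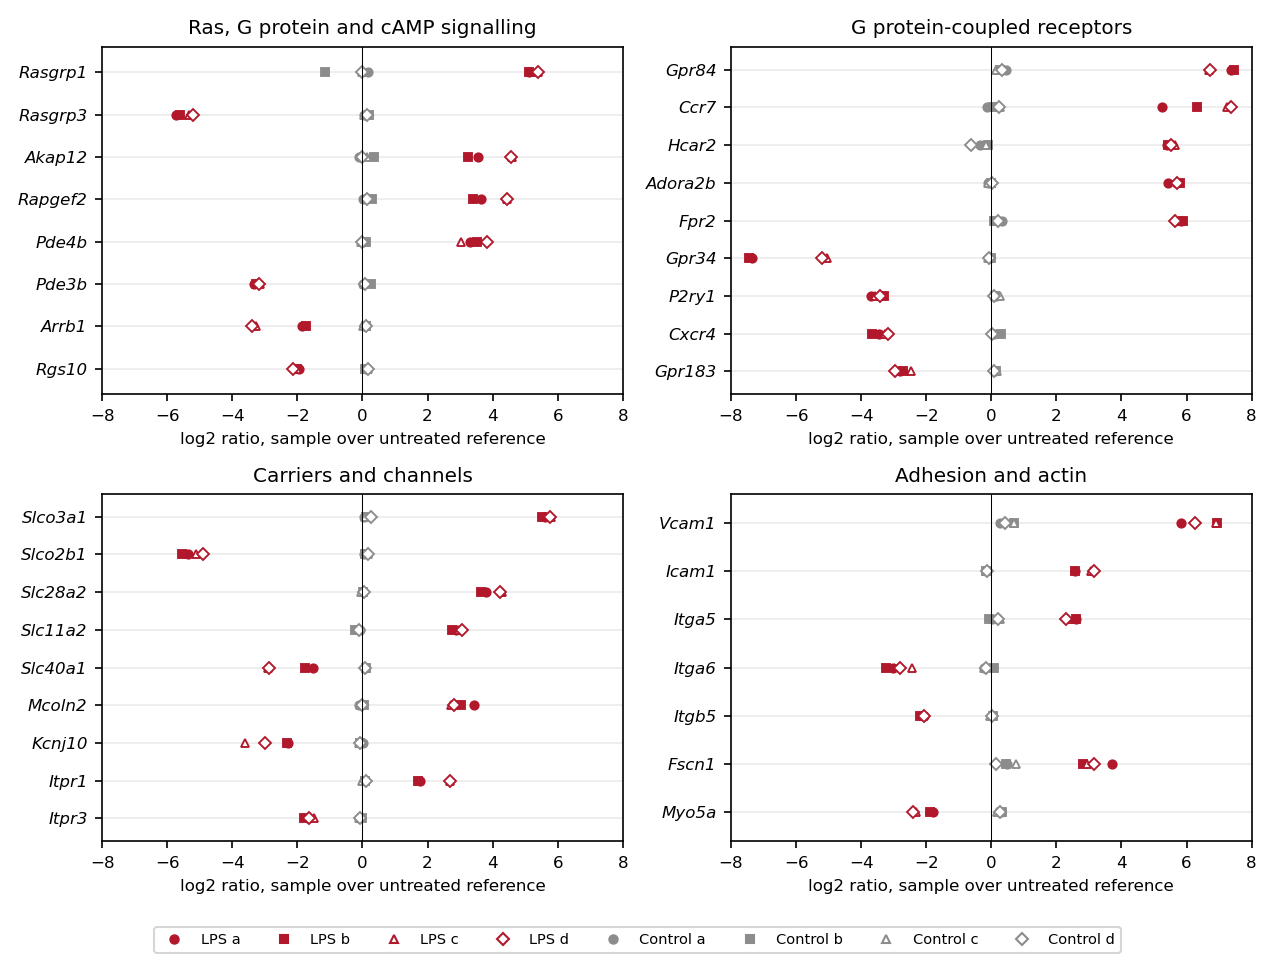
Log2 ratio of sample over untreated reference (horizontal axes) on each LPS array (red) and control array (grey) for 4 groups of genes, filled symbols for replicates a and b and open symbols for c and d. The genes were picked from called members of both directions, so each group holds members to the right and to the left of the control points by choice. Rasgrp1 and Rasgrp3 differ from control in opposite directions, as do the carriers Slco3a1 and Slco2b1 and the integrin chains Itga5 and Itga6.

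Ubiquitin ligases and deubiquitinases included known brakes on NF-kB and interferon signalling, and of the list 25 of 70 measured genes rose and 12 fell (median 0.43). Tnfaip3 (A20), a ubiquitin-editing inhibitor of NF-kB, had 5.04, 5.24, 6.18 and 6.41 on LPS arrays a to d and -0.20 to 0.032 in control (5.81 ± 0.25). The endoribonuclease and deubiquitinase Zc3h12a (regnase) had 3.53, 3.58, 3.96 and 4.02 (3.75 ± 0.14). Usp18, which removes the ubiquitin-like ISG15, rose by 4.17 ± 0.12, and the ligases Rnf19b (2.84 ± 0.22) and Trim21 (2.54 ± 0.18) followed. Beside Peli2 and Rnf150, the ligases Rnf144b (-3.56 ± 0.098, 3 of 4 LPS arrays above background) and Fbxo32, the muscle atrophy ligase (-3.39 ± 0.17), and the deubiquitinase Usp2 (-3.23 ± 0.12) fell.

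Apoptosis regulators rose more often than they fell, and of 50 measured genes, 18 were called higher and 7 lower (median 0.39). The Bcl-2 family survival protein Bcl2a1d had 4.59, 4.2, 3.94 and 4.15 after LPS and 0.00087 to 0.082 in control (4.17 ± 0.13); several near-identical copies of this gene exist, and the array cannot tell them apart with certainty. Cflar, which blocks caspase activation at death receptors, rose by 3.94 ± 0.12, Traf1 by 4.92 ± 0.16 and Ier3 by 3.98 ± 0.074, but the death receptor Fas rose as well (3.81 ± 0.14). Of the pro-apoptotic members Bmf, Bok (at least 5.86-fold lower) and Bbc3, known as Puma (-1.51 ± 0.094), fell. The p53-induced Phlda3 (-2.26 ± 0.094) and Bcl2l13 (-1.79 ± 0.11) also fell, while Mcl1 (0.55 ± 0.067, another probe 1.18), Bak1 (0.79 ± 0.062) and Bax (0.014 ± 0.056) were not called.

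Transcription factors outside the NF-kB and interferon families moved in both directions. In the KLF, CEBP, MAF and HLH families 15 of 51 measured genes rose and 12 fell (median 0.11). Mxd1, a repressor that opposes the MYC proteins, had 4.04, 3.98, 5.04 and 5.15 (4.36 ± 0.26), with c and d above a and b, and Mycl was at least 16-fold higher. Cebpb (2.75 ± 0.11, without an outlier spot on LPS array a), Hif1a (2.7 ± 0.076) and Maff (2.57 ± 0.28) rose, while Cebpa, Lyl1 (-2.8 ± 0.050) and Tcf12 (-2.75 ± 0.12) fell. Cebpa and Cebpb thus went in opposite directions, by -3.0 and 2.75.

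Among other sequence-specific factors 19 rose and 14 fell among 60 measured (median 0.49). Batf, an AP-1 family partner, rose evenly, with 4.75, 4.63, 4.63 and 4.64 on the LPS arrays and -0.19 to 0.099 in control (4.7 ± 0.062). Ets2 (2.94 ± 0.33), Plagl2 (2.89 ± 0.11) and the atypical IkB protein Bcl3 (2.75 ± 0.13) rose, and Hivep3 was at least 5.7-fold higher. Bach2, a repressor that competes for AP-1 sites, was at least 4.99-fold lower, and the progenitor factors Meis1 (-3.11 ± 0.13), Sox4 (-2.81 ± 0.17, 2 of 4 LPS arrays above background) and Hhex (-2.11 ± 0.070) fell. Elk1 (0.17 ± 0.087, without an outlier spot on LPS array a) and Nfe2l2, which encodes NRF2 (0.59 ± 0.034), were not called.

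In nuclear receptors and their coregulators 6 of 37 measured genes rose and 9 fell (median -0.027). Pparg, the lipid-activated receptor of alternative activation, fell from 0.034 to 0.13 to -2.55, -2.56, -1.96 and -2.06 (-2.36 ± 0.13), with a and b lower than c and d. Zbtb16 (-2.71 ± 0.21, 3 of 4 LPS arrays above background), Rora (-2.26 ± 0.17), the glucocorticoid-induced Tsc22d3 (-1.75 ± 0.14) and Rxrb (-1.58 ± 0.088) fell. Ncoa7 (2.56 ± 0.41), the phosphatase Dusp1 (2.48 ± 0.19), Lcor (2.02 ± 0.16, 3 of 4 control arrays above background), Esr1 (1.48 ± 0.15) and the oxysterol receptor Nr1h3 (1.29 ± 0.19) rose. With normexp correction Lcor was at 0.92 and Esr1 at 0.80, and neither was called. In the clock list 2 of 19 measured genes rose and 4 fell (median -0.17). Output factors of the clock fell, Dbp to -2.19, -2.31, -2.93 and -2.94 (-2.65 ± 0.17) and Tef (-1.93 ± 0.18), as did the kinase Csnk1e (-2.0 ± 0.14, another probe -0.72), and Nfil3, which opposes them at the same sites, rose by 2.03 ± 0.10. The kinase Csnk1d (-0.14 ± 0.11) and Per1 (0.27 ± 0.14) were not called. Cells at 0 h and 8 h also differ in clock time, whose part was not tested.

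Of chromatin modifiers 13 of 72 measured genes rose and 16 fell (median 0.082). The H3K27 demethylase Kdm6b had 3.62, 3.5, 2.5 and 2.65 (2.96 ± 0.24), a and b above c and d, and the DNA dioxygenase Tet2 1.86, 1.76, 3.06 and 2.78 (2.02 ± 0.25), c and d above a and b. Arid5a rose by 3.04 ± 0.28 and Hmgn3 by 2.09 ± 0.089, and Ehmt1 by 2.06 ± 0.072 with another probe at -0.71. The methyltransferase Setd7 (-3.24 ± 0.16), the demethylase Kdm2b (-2.56 ± 0.13), Hmgb2 (-2.32 ± 0.11) and the peptidylarginine deiminase Padi2 (-1.98 ± 0.13) fell, and Cbx6 (-3.44 ± 0.11) in 1 probe and -0.96 in another. Of RNA-binding and mRNA decay proteins 13 of 65 measured genes rose and 10 fell (median 0.21). Zc3h12a, Igf2bp2 (3.63 ± 0.13), N4bp1 (3.53 ± 0.26), Arid5a and the decapping enzyme Dcp2 (2.68 ± 0.17) rose. The AU-rich element binding proteins Zfp36l1 (-1.99 ± 0.080) and Zfp36l2 (-2.01 ± 0.15) fell together with Mex3b (-3.57 ± 0.17, 2 of 4 LPS arrays above background), Dicer1 (-1.71 ± 0.10) and the deadenylase Cnot6l (-1.7 ± 0.050, another probe -0.99).

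Genes of arginine uptake and of both branches that use arginine rose. Arginine is imported by Slc7a2 and then converted to nitric oxide by Nos2, with a pterin cofactor made by Gch1, or to ornithine by the arginases. Slc7a2 had 6.13, 5.68, 5.02 and 5.03 on LPS arrays a to d (5.7 ± 0.30, 3 of 4 control arrays above background), Nos2 4.73, 4.84, 5.35 and 5.46 (34.1-fold) and Gch1 3.78, 3.69, 4.15 and 4.0 (3.77 ± 0.091), all far above control. Both arginases rose too, Arg1 from -0.042 to 0.42 in control to 4.6, 4.78, 2.87 and 3.01 (3.6 ± 0.37) and Arg2 to 3.52, 2.92, 1.4 and 2.44 (2.56 ± 0.41), but with a and b above c and d. Over the list of arginine and polyamine genes 9 of 23 measured genes rose and 3 fell (median -0.13), the decreases being Paox (-1.53 ± 0.093), Ddah2 (-1.39 ± 0.10) and sepiapterin reductase Spr (-1.02 ± 0.054), which was at the threshold and missed it when LPS replicate d was left out.

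In tryptophan and NAD metabolism 10 of 22 measured genes rose and 4 fell (median 0.77). The consumers Cd38, with 5.64, 5.36, 4.65 and 5.82 on the LPS arrays, and Bst1 (2.45 ± 0.094, without an outlier spot on LPS array a) rose together with Nampt, the salvage enzyme that makes NMN from nicotinamide (2.33 ± 0.15), and Kmo of the kynurenine pathway (2.58 ± 0.20). Parp14 rose by 2.94 ± 0.089 and Parp1 fell (-1.51 ± 0.038). Naprt, which salvages nicotinic acid, was very even, with -1.51, -1.53, -1.52 and -1.49 after LPS and 0.012 to 0.019 in control (-1.53 ± 0.022), and Nmnat3 (-1.83 ± 0.16) and the mitochondrial deacetylase Sirt3 (-1.7 ± 0.083) fell. Nadk (0.54 ± 0.095, without an outlier spot on LPS array a, another probe 1.19), Sirt2 (-0.025 ± 0.036) and Sirt1 (-0.69 ± 0.067) were not called.

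In the tricarboxylic acid cycle and pyruvate list 2 of 37 measured genes rose and 6 fell (median -0.22). The increases were Acod1 and the pyruvate dehydrogenase kinase Pdk3 (1.58 ± 0.077). The decreases were the cytosolic isocitrate dehydrogenase Idh1, with -1.56, -1.82, -2.36 and -2.21 on the LPS arrays (-1.81 ± 0.15), the cytosolic malate dehydrogenase Mdh1 (-1.35 ± 0.074), Pdk2 (-1.35 ± 0.086), the aspartate aminotransferase Got1 (-1.21 ± 0.14) and fumarase Fh1 (-1.1 ± 0.040). Citrate synthase Cs (0.18 ± 0.043), Sdhb (-0.048 ± 0.056) and mitochondrial Mdh2 (0.42 ± 0.059) were not called. Without background subtraction 2 decreases were called in place of 6. In sugar phosphate metabolism 3 of 28 measured genes rose and 6 fell (median -0.29), where Shpk, a sedoheptulose kinase known as CARKL, fell to -1.39, -1.59, -1.79 and -1.81 (-1.7 ± 0.090), and Sord (-2.0 ± 0.077), the phosphorylase kinase subunit Phka2 (-1.62 ± 0.083) and the glycogen phosphorylase Pygl (-1.45 ± 0.14) fell, and Gmppb rose by 2.0 ± 0.086.

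In fatty acid synthesis 1 of 22 measured genes rose and 7 fell (median -0.36). Elovl6, the elongase of palmitate, had -4.2, -3.79, -4.18 and -4.44 after LPS against -0.25 to -0.081 in control (-3.97 ± 0.13, 1 of 4 LPS arrays above background). The desaturase Fads1 fell to -2.61, -2.68, -2.57 and -2.45 (-2.5 ± 0.042), and Elovl7 (-2.85 ± 0.33, 3 of 4 LPS arrays above background) and the acyl-CoA ligase Acsl3 (-2.69 ± 0.18) fell. Acsl1, another ligase, rose by 3.14 ± 0.17, and Elovl1 (-0.17 ± 0.14) and the citrate lyase Acly (-0.44 ± 0.051) were not called. Scd2 had -0.13, -0.61, -3.53 and -2.94, so arrays a and b stayed near control while c and d fell, and it was called overall (-1.84 ± 0.59, adjusted p = 0.022) but not when LPS replicate c (-1.27) or d (-1.46) was left out.

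Triglyceride storage genes Dgat2 (3.01 ± 0.13) and Hilpda (2.93 ± 0.20), a lipid droplet protein that inhibits lipolysis, rose, and the phosphatidate phosphatases Lpin1, at -2.78, -3.03, -3.75 and -3.33 (-3.09 ± 0.15), and Lpin3 (-1.3 ± 0.065) fell, within a list in which 4 of 22 measured genes rose and 2 fell (median 0.19). Lpl (0.043 ± 0.17, without outlier spots on LPS array a and control array a) and Plin2 (0.27 ± 0.13, without outlier spots on LPS array a and control array a) were not called. Fatty acid oxidation and peroxisomal genes fell about as often as all genes (1 higher, 6 lower of 33, median -0.41), with the peroxisomal transporter Abcd2 at least 5.09-fold lower and Acox3 (-1.6 ± 0.056, another probe -0.52), Acadm (-1.41 ± 0.11), Hadh (-1.19 ± 0.036) and Hsd17b4 (-1.09 ± 0.054) lower. Phospholipid genes were balanced (5 and 4 of 31). Pla2g4a, the cytosolic phospholipase that releases arachidonate, rose to 2.34, 2.62, 3.74 and 3.92 (3.27 ± 0.34), c and d above a and b, and Plcl1 was at least 3.85-fold lower and the acyltransferase Mboat1 fell (-1.51 ± 0.28). In sphingolipid metabolism 5 of 31 measured genes rose and 8 fell (median -0.47). Ceramide synthase Cers6 (3.83 ± 0.11), sphingosine kinase Sphk1 (3.25 ± 0.14, 3 of 4 control arrays above background), Smpdl3b (2.24 ± 0.045) and serine palmitoyltransferase Sptlc2 (1.41 ± 0.074, another probe 0.79) rose, while galactosylceramidase Galc (-2.83 ± 0.16, 3 of 4 LPS arrays above background), Kdsr (-2.47 ± 0.20), ceramide kinase Cerk (-2.11 ± 0.18) and the receptor S1pr1 (-1.78 ± 0.27) fell and Smpd3 was at least 2.24-fold lower.

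**Figure D3:**
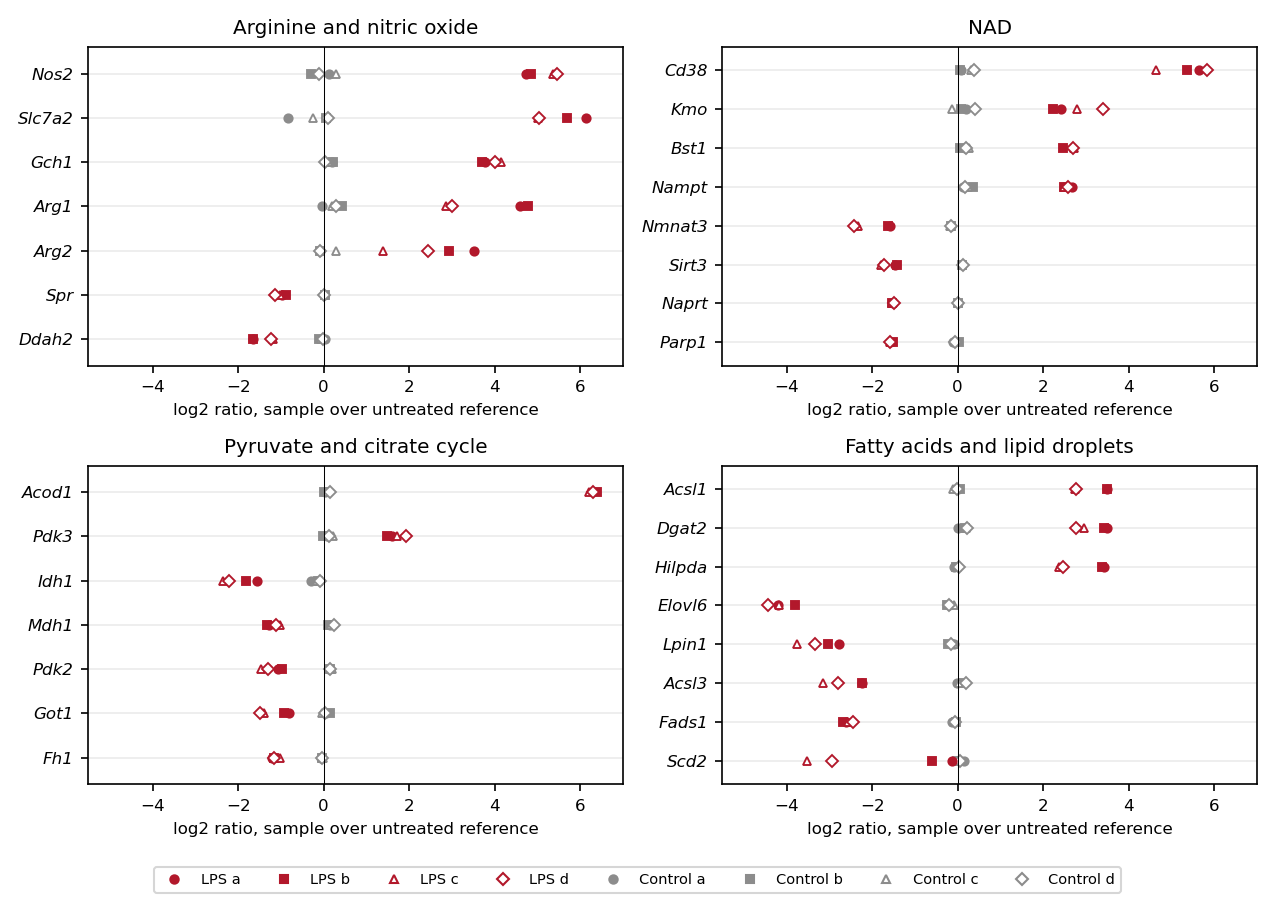
Log2 ratio of sample over untreated reference (horizontal axes) on each LPS array (red) and control array (grey) for metabolic genes in 4 groups, filled symbols for replicates a and b and open symbols for c and d. Nos2, Slc7a2, Cd38 and Acod1 lie above 4 on every LPS array with a value, Elovl6 lies below -3, and Arg1, Arg2 and Scd2 show a gap between the filled and the open LPS symbols.

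The list of nucleotide synthesis and salvage had 42 measured genes, 7 higher and 13 lower (median -0.46). Upp1, which splits uridine, had 5.21, 5.23, 5.42 and 5.35 on the LPS arrays (42.8-fold). The mitochondrial kinase Cmpk2 (4.89 ± 0.14), purine nucleoside phosphorylase Pnp (3.27 ± 0.087, without an outlier spot on LPS array a), thymidylate synthase Tyms (2.64 ± 0.12) and the dNTP hydrolase Samhd1 (2.49 ± 0.071) rose. Both ribonucleotide reductase subunits of dividing cells fell, Rrm2 to -5.0, -5.11, -4.02 and -3.89 (-4.54 ± 0.23) and Rrm1 (-2.27 ± 0.23), and CTP synthase Ctps (-2.46 ± 0.19) and the adenylosuccinate synthases Adssl1 (-2.3 ± 0.048) and Adss (-2.07 ± 0.066) fell. The nucleoside carrier Slc28a2 rose in parallel with Upp1 and Pnp, to 3.81, 3.64, 4.29 and 4.24 (3.98 ± 0.12). In serine, folate and methionine metabolism 4 of 26 measured genes rose and 3 fell (median -0.12). Cth (1.76 ± 0.42, 1 of 4 control arrays above background) and Mthfd2 (1.25 ± 0.11) were higher. Gldc (-1.5 ± 0.14) and Mthfd1 (-1.24 ± 0.11) were lower. With normexp correction Cth was at 0.45 and Gldc at -0.96, and neither was called.

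Superoxide handling rose at the mitochondrial dismutase. Sod2 had 4.54, 4.32 and 4.42 on LPS arrays b to d (4.36 ± 0.094, without an outlier spot on LPS array a), while the cytosolic Sod1 fell (-1.05 ± 0.050, without outlier spots on LPS array a and control array a), just past the threshold, and was at -0.46 with red signal alone. Of the list 6 of 20 measured genes rose and 3 fell (median 0.26), with the oxidase subunits Nox1 (4.21 ± 0.22, 3 of 4 control arrays above background) and Cybb (1.34 ± 0.042) and the peroxiredoxins Prdx1 (1.92 ± 0.16, without an outlier spot on LPS array a) and Prdx5 (1.59 ± 0.092) higher and the glutathione peroxidases Gpx3 (-1.17 ± 0.14) and Gpx4 (-1.03 ± 0.056) lower. The oxidase subunit Cyba (0.36 ± 0.054, without outlier spots on LPS array a and control array a) and Gpx1 (-0.98 ± 0.029, without an outlier spot on control array a), just under 2-fold lower, were not called. With normexp correction Gpx3 was at -0.48 and Gpx4 at -0.87, neither called, while Gpx1 was called at -1.1.

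Carriers moved in both directions too. Slco3a1 rose 46.6-fold, to 5.6, 5.52, 5.78 and 5.75 on the LPS arrays, and Slco2b1, of the same family of organic anion carriers, fell 40.8-fold, to -5.37, -5.54, -5.12 and -4.9 (-5.35 ± 0.15, 3 of 4 LPS arrays above background). Over this list 12 of 41 measured genes rose and 12 fell (median -0.025), with the glucose carrier Slc2a6 (3.24 ± 0.074), the peptide carrier Slc15a3 (3.09 ± 0.073) and Slc13a3 (2.98 ± 0.18) higher. Slc46a3 (-2.86 ± 0.16), Slc37a2 (-2.84 ± 0.089, without an outlier spot on LPS array a), the iron exporter Slc40a1 (-2.36 ± 0.29) and Abcc3 (-2.11 ± 0.073) were lower. Among metal and proton transporters 7 of 30 measured genes rose and 3 fell (median 0.47). The iron importer Slc11a2 (DMT1) had 2.87, 2.76, 2.97 and 3.05 (3.04 ± 0.066), so the mRNA of an iron importer rose while that of the exporter fell. The zinc and iron importer Slc39a14 (2.93 ± 0.18), the copper carriers Slc31a1 (2.1 ± 0.099) and Slc31a2 (2.55 ± 0.046) and the zinc exporter Slc30a1 (1.83 ± 0.076) rose. The chloride cotransporter Slc12a2 (-2.02 ± 0.072), the zinc importer Slc39a10 (-1.46 ± 0.072) and the proton exchanger Slc9a9 (-1.27 ± 0.11) fell.

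Ion channels gave 13 increases and 6 decreases among 42. The endolysosomal cation channel Mcoln2 had 3.43, 3.02, 2.71 and 2.81 after LPS (3.03 ± 0.12). Clic5 (4.33 ± 0.36, 2 of 4 control arrays above background), the volume-regulated anion channel subunit Lrrc8c (2.19 ± 0.14) and the potassium channel Kcna3 (2.16 ± 0.28) rose. The inositol trisphosphate receptors went in opposite directions, Itpr1 to 1.78, 1.71, 2.69 and 2.7 (2.16 ± 0.20) and Itpr3 to -1.68, -1.79, -1.5 and -1.63 (-1.57 ± 0.062). Potassium channel genes Kcnj10 (-2.74 ± 0.25), Kcne3 (-2.69 ± 0.20), Kcnk12 (-1.78 ± 0.096) and Kcnq1 (-1.75 ± 0.19) fell. Among carbonic anhydrases, aquaporins and retinoid or steroid enzymes, of 40 measured genes, 7 were called higher and 12 lower (median -0.26). Car13 rose to 3.56, 3.38, 3.71 and 3.61 (3.42 ± 0.057), Car2 was at least 19.6-fold higher, Aqp9 was at least 3.38-fold higher and Aldh1b1 rose by 2.96 ± 0.13. Sult1a1 (-3.31 ± 0.18, 3 of 4 LPS arrays above background), Cyp2s1 (-2.52 ± 0.19), Fmo5 (-2.45 ± 0.050, with probes from -3.85 to 0.33), Aqp11 (-2.27 ± 0.13, 1 of 4 LPS arrays above background) and the retinol dehydrogenase Rdh10 (-1.98 ± 0.16) fell. With normexp correction Aqp11 was at -0.78 and not called.

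Actin genes rose far more often than they fell: of 61 measured genes, 20 were called higher and 2 lower (median 0.62). Marcksl1, which tethers actin to the membrane, had 4.41, 4.7, 4.77 and 4.82 (4.74 ± 0.23) and the bundling protein Fscn1 3.71, 2.81, 2.94 and 3.15 (2.7 ± 0.17, 2 of 4 control arrays above background). Calponin Cnn3 (5.67 ± 0.45, 1 of 4 control arrays above background) and pleckstrin Plek (3.21 ± 0.12) rose as well. The 2 decreases were Myo5a, a vesicle motor (-2.36 ± 0.11), and Wipf1 (-1.34 ± 0.060, another probe -0.038).

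Vesicle traffic genes rose more often than they fell, and of 63 measured genes, 23 were called higher and 7 lower (median 0.52). Ehd1, which acts in endosome recycling, had 4.21, 4.21 and 4.02 on LPS arrays b to d (4.21 ± 0.11, without an outlier spot on LPS array a), and Rab20, a GTPase of maturing phagosomes, had 3.05, 2.98, 3.09 and 3.08 on a to d against -0.045 to 0.054 in control (3.04 ± 0.060). Both were even across the LPS arrays. Rab11fip1 (3.48 ± 0.24, 3 of 4 control arrays above background), the syntaxin Stx11 (3.06 ± 0.21) and Exoc3l4 (2.58 ± 0.047) rose and Syt11 (-1.95 ± 0.13), Rab3il1 (-1.59 ± 0.078) and Rab27a (-1.57 ± 0.13) fell. In the Golgi and secretory pathway 6 of 65 measured genes rose and 0 fell (median 0.27), by modest amounts, with the oxidase Ero1a (1.5 ± 0.21), Golga3 (1.42 ± 0.15) and the coat protein Sec23b (1.36 ± 0.089) at the top.

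Lysosomal genes fell about as often as all genes and rose less often: of 67 measured genes, 3 were called higher and 11 lower (median -0.43). The decreases were led by Galc, by Atp6v0d2, a proton pump subunit of macrophages and osteoclasts (-1.96 ± 0.12), and by Manba (-1.37 ± 0.051), the phospholipase Pla2g15 (-1.31 ± 0.077) and Man2b1 (-1.3 ± 0.040). Acp2 (1.4 ± 0.13) and another pump subunit, Tcirg1 (1.28 ± 0.072), rose. The third increase, Sgsh, rests on a probe at 1.51 ± 0.18 (without outlier spots on LPS array a and control array a) whose sister probe gave -3.08. The membrane protein Lamp1 was not called (-0.15 ± 0.077, without an outlier spot on LPS array a).

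Genes of the core expression machinery were seldom called. In translation 4 of 56 measured genes rose and 3 fell (median 0.063), with the tryptophan tRNA synthetase Wars, which interferon is known to induce (2.11 ± 0.074), and Rars (1.63 ± 0.15) higher and the elongation factor kinase Eef2k (-2.09 ± 0.12) lower. For the spliceosome 2 rose and 4 fell among 54 measured (median -0.21), and in mitochondrial dynamics, import and ribosome genes 1 rose and 2 fell among 38 measured (median -0.22). Pink1, the kinase that marks damaged mitochondria, was one of the 2 mitochondrial decreases (-2.42 ± 0.071), with Polrmt (-1.16 ± 0.17), and the mitophagy receptor Bnip3 the increase (1.81 ± 0.23). The shares in each direction lie below the 14.4% and 16.4% of all genes, for these 3 lists. Ribosome biogenesis had 8 decreases and 1 increase among 67 genes, both below the shares of all genes, and a median of -0.41. Its decreases were led by the pseudouridine synthase Dkc1 (-1.98 ± 0.41, 2 of 4 LPS arrays above background) and Utp20 (-1.6 ± 0.20). With normexp correction Dkc1 was at -0.66 and Utp20 at -0.89, and neither was called. The increase Ubtf (2.25 ± 0.084, without outlier spots on LPS array a and control array a) had another probe at -0.54. In replicates c and d taken alone 13 genes of the list fell, against 5 in a and b. Nuclear pore and transport genes fell about as often as all genes and rose less often, with 2 increases and 8 decreases among 50 measured. The increases were the importins Kpna4 (1.65 ± 0.13) and Kpna3 (1.61 ± 0.16). The decreases were led by Nup85 (-2.15 ± 0.054) and the importin Kpna2 (-1.74 ± 0.077).

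DNA repair was the list that moved most to 1 side. Of 71 measured genes, 44 fell and 1 rose, and the median was -1.44. The glycosylase Neil3 had -4.42, -4.81, -3.98 and -3.86 on the LPS arrays (-4.37 ± 0.17) and Brca2 of homologous recombination -4.18, -4.11, -3.59 and -3.48 (-3.83 ± 0.13). Neil2 fell (-3.32 ± 0.19) and Poln was at least 4.56-fold lower. The exception was the uracil glycosylase Ung (2.12 ± 0.13, without outlier spots on LPS arrays a and d and control array a). Many repair genes are known to be expressed with DNA replication, and how much of this follows the cell cycle genes was not tested.

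Proteases and their inhibitors were the list with the largest share of increases, since 27 of 49 measured genes rose and 3 fell (median 1.2). Beside Serpinb2, Serpina3f, Mmp13 and Mmp14, Adamts4 was at least 26.4-fold higher. Thrombomodulin Thbd, a cofactor that turns thrombin towards anticoagulation, fell to -3.2, -3.14, -3.49 and -3.28 (-3.16 ± 0.081), the metalloproteinase inhibitor Timp2 fell (-2.2 ± 0.16) and urokinase Plau (-2.1 ± 0.37). The lysosomal cathepsins Ctsb (0.012 ± 0.069, without outlier spots on LPS array a and control array a), Ctsd (-0.70 ± 0.13, without an outlier spot on LPS array a) and Ctsl (-0.21 ± 0.064, without outlier spots on LPS array a and control array a) were bright and not called. In extracellular matrix genes 9 rose and 4 fell among 35 measured (median 0.30). The collagen crosslinking oxidase Lox was at least 25.2-fold higher, fibrillin Fbn1 at least 14.8-fold and hyaluronan synthase Has1 at least 5.44-fold, and the proteoglycans Sdc4 (3.58 ± 0.069) and Vcan (3.43 ± 0.17) rose. Col14a1 (-1.71 ± 0.16, 3 of 4 LPS arrays above background, another probe 0.091) and Lamb2 (-1.22 ± 0.14) fell. Mfge8, which bridges apoptotic cells to integrins, fell (-1.16 ± 0.068), as did its integrin receptor chains Itgb3 and Itgb5. With normexp correction Col14a1 was at -0.75, Lamb2 at -0.57 and Mfge8 at -0.955, and none of these was called.

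Growth factors and their receptors were balanced, and 12 rose and 11 fell among 44 measured (median 0.029). Inhba, the activin subunit, had 4.25, 4.21, 4.15 and 4.18 (4.1 ± 0.37, 1 of 4 control arrays above background), Vegfc rose by 4.01 ± 0.51, and Nrg1 was at least 11.8-fold higher, beside Angpt1 and Edn1. The receptors Igf1r (-2.81 ± 0.25, 3 of 4 LPS arrays above background) and Tgfbr1 (-2.81 ± 0.24) and the ligands Tgfb3 (-2.78 ± 0.083), Hgf (-2.69 ± 0.19) and Bmp2 (-2.57 ± 0.32, 3 of 4 LPS arrays above background) fell. Among glycosyltransferases and sulfotransferases 15 of 53 measured genes rose and 17 fell (median -0.13). Heparan and chondroitin sulfate enzymes Ext1 (3.27 ± 0.21), Chst7 (2.88 ± 0.25) and Chst11 (2.87 ± 0.40) rose, whereas the sialyltransferases St6gal1 and St8sia4 (-2.44 ± 0.078) and the mucin-type enzymes Gcnt1, at -3.67, -3.75, -3.65 and -3.69 (-3.67 ± 0.051), and Galnt12 (-2.9 ± 0.065) fell.

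**Figure D4:**
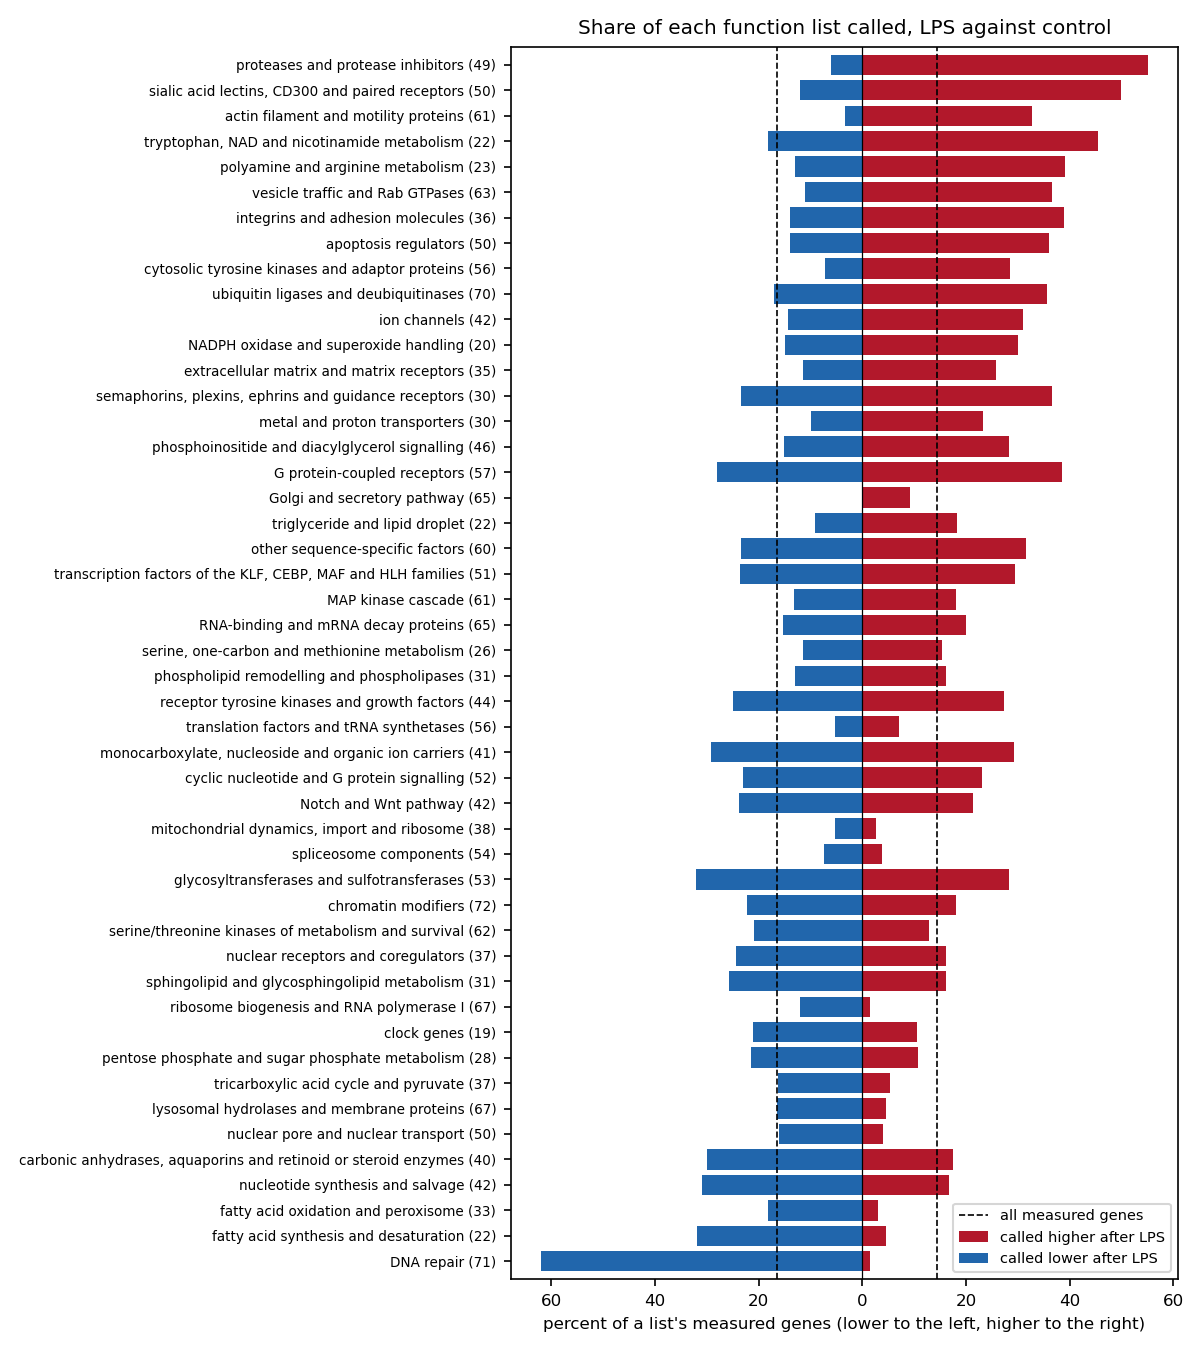
Percent of the measured genes of each of 48 function lists called higher (right, red) or lower (left, blue) after LPS, ordered by the difference of both shares, with the number of measured genes in brackets; dashed lines mark 14.4% higher and 16.4% lower for all 12398 genes. Proteases (27 of 49) and lectin and paired receptors (25 of 50) extend furthest to the right, and DNA repair extends furthest to the left with 44 of 71 genes.

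The lists held 2366 genes on the array, of which 2140 were measured, and 467 of these rose and 387 fell. Both shares were above the 14.4% higher and 16.4% lower of all 12398 genes. Members and lists were chosen with earlier results of these data known, so the listed genes are not an independent sample.

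The 4 replicates did not answer with the same size of change in every gene, and the split followed the letters. Replicates a and b were scanned on 1 day and c and d on another, and their titles carry different tags (M98 and M99 against ML and MR) that the labels do not explain, so day, slide and the source of the cells cannot be told apart. The difference of the response between the pairs was called for 489 genes, 3.94% of 12398, with 288 higher in c and d and 201 higher in a and b, and 292 of them were also called for LPS against control. Among 11333 genes measured on all 8 arrays, the pairs of LPS arrays differed at least 2-fold in 429 genes and the pairs of control arrays in 5. All 3822 called genes had the same direction in both pairs. The call over all 4 replicates favours this, since opposite responses give a small mean and a large SE, so it is no separate check.

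Zfp618 was the gene with opposite responses of at least 2-fold. Its log2 ratio was -1.54, -1.64, 1.58 and 1.55 on LPS arrays a to d and -0.31 to -0.17 in control, giving -1.41 in a and b and 1.82 in c and d (difference 3.23 ± 0.23, adjusted p = 7.5e-05). It was not called over all 4 replicates (0.20 ± 0.67). Egr1, an immediate-early zinc-finger factor, had -0.19, 0.50, 2.87 and 2.9, close to control in a and b and raised in c and d (difference 2.74 ± 0.28, adjusted p = 0.00043). Hivep2 responded by 1.03 and 3.55, Ell3 by -0.34 and 2.13, the phosphatase Dusp10 by -0.51 and 1.9 and the adenosine receptor Adora3 by 1.17 and 3.24. The coactivator Ncoa7 responded by 1.57 and 3.54.

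In the other direction the platelet chemokine gene Ppbp responded by 4.38 in a and b and 1.38 in c and d (difference -3.0 ± 0.20, adjusted p = 6.4e-05). The desaturase Scd2 responded by -0.44 and -3.25 (-2.82 ± 0.30, adjusted p = 0.00057) and Arg1 by 4.5 and 2.7 (-1.8 ± 0.27, adjusted p = 0.0028). Egln3, the oxygen-sensing prolyl hydroxylase that HIF is known to induce, responded by 2.08 and -0.10, its relative Egln1 by 0.73 and -0.91 and the chaperone Hsph1 by 1.25 and -0.37. Hif1a responded by 2.66 and 2.74, and its difference was not called (adjusted p = 0.78). The genes of this paragraph and the one before it were taken from the 15 largest differences in each direction, after their values were seen.

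**Figure D5:**
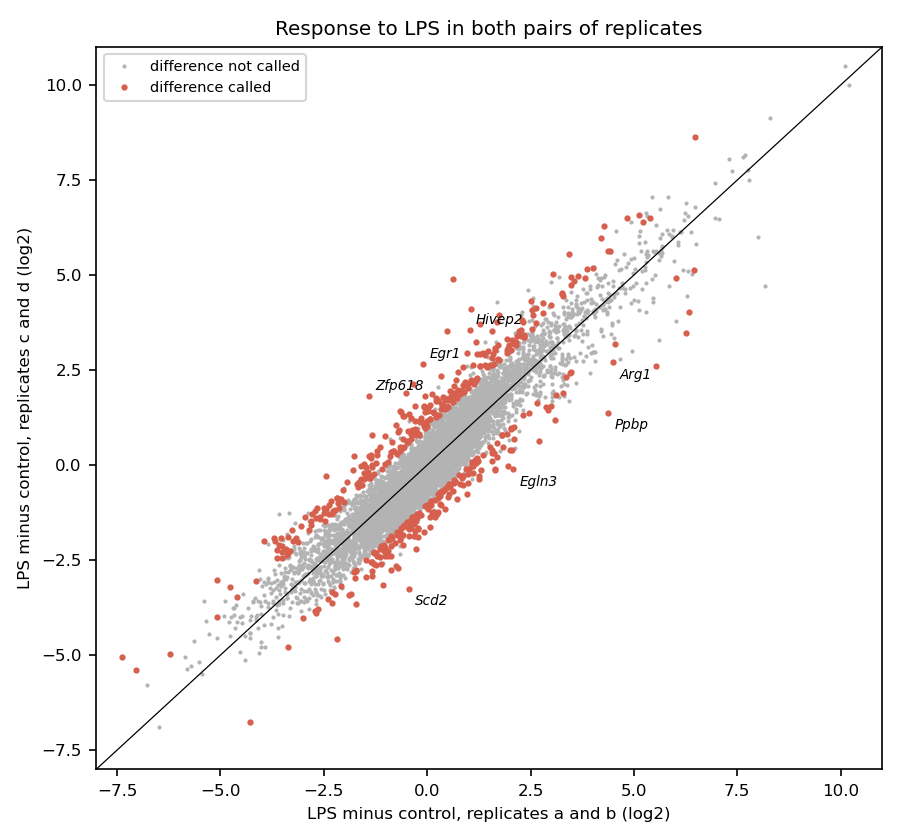
Each point is 1 of 12398 genes, with the LPS minus control difference of log2 ratios in replicates a and b (horizontal) against that in c and d (vertical); orange points are the 489 genes whose response differed between the pairs, and the line marks equal responses. Points follow the line over the whole range, and Zfp618, Egr1 and Hivep2 lie above it and Ppbp, Scd2, Egln3 and Arg1 below it.

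The response was set against heme-albumin at the same 8 h, a comparison in which both groups had the same time in culture but shared the LPS arrays with the comparison above. LPS minus heme-albumin at 50 µM was called for 30.6% of genes and LPS minus heme-albumin at 200 µM for 30.1%. Of the 1783 genes higher after LPS than in control, 1538 (86.3%) were also called higher than in both heme-albumin groups, and of the 2039 lower genes 1727 (84.7%) were lower than in both. The 20 largest decreases and the 20 largest bounds all passed both, as did 19 of the 20 largest increases. Nos2 was 5.03 above heme-albumin 200 µM and 5.22 above 50 µM, and Angptl4 -4.64 and -4.43 relative to them. Acod1 was part of both responses, with a mean log2 ratio of 6.3 after LPS, 3.71 at 200 µM and 2.01 at 50 µM, yet was 2.59 higher after LPS than at 200 µM (adjusted p = 2.6e-07).

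Spic was the exception among the 20. Its mean log2 ratio was 5.59 after LPS, 5.71 at 200 µM and 3.19 at 50 µM, so that LPS and the higher heme-albumin dose differed by -0.12 (adjusted p = 0.76) and LPS stood 2.4 above the lower dose. The mean ratio of the iron exporter Slc40a1 was -2.26 after LPS and 4.29 at 200 µM, and that of Arg1 3.81 and -1.33. The carrier Slco2b1 had -5.23 after LPS and -2.71 at 200 µM, a difference of -2.52 (adjusted p = 6.8e-09).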

How the data were processed

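RNA of every sample was hybridised in red against untreated reference RNA in green. Per the file headers, Feature Extraction 10.7.3.1 from Agilent subtracted background, normalised the dyes (linear and lowess) and gave log10 ratios of red to green, deposited beside the intensity of both colours. The authors analysed the log10 ratios by analysis of variance in JMP Genomics with a 2-fold filter, per the labels. Here ratios were turned to log2, control and outlier spots were left out and spots of a probe averaged. All 39429 probes of the 16 arrays were fitted by group with limma 3.58.1 (R 4.3.3) without a block, and p-values were adjusted over all probes. Accessions named 27234 probes through RefSeq genes of GRCm38.p6, and the other 12195 are unnamed here. A gene was represented by its probe of highest red signal, and 579 genes had both called and uncalled probes. On simulated data of 39429 probes, 50 of them changed at each fold, the fit called 46% of 2-fold and 100% of 3-fold changes. There were 4 false calls of 39229. A true 2-fold change lies at the 2-fold limit of a call, so the 46% reflects that limit. In the real data 16.9% of probes were called, and the LPS arrays of replicates a and b differed from c and d in some genes. The simulated rates therefore describe the simulation alone, and those of the real data were not tested.

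Named genes were the 20 largest increases and decreases above background on all 8 arrays and the 20 largest bounds outside cytokine, chemokine, interferon and cell cycle patterns and, in each list, up to 5 called members per direction by size and up to 3 others by signal. Some genes and 1 list that this rule names are not reported here. Members and lists were chosen with earlier results of these data known. Array number, 4 per group, limits the precision. The control arrays, with untreated RNA in both colours, varied less than the LPS arrays. Among 11333 genes, 5 differed at least 2-fold between the pairs of control arrays and 429 between the pairs of LPS arrays. The fit takes a common spread for all groups, so the SE can be too small where the LPS arrays spread widely.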

Additional observations from a re-analysis of the deposited data

Results flagged for a closer look

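Fewer than 876 groups of 4 arrays of the genes named were searched, as groups that had lost a value to an outlier spot or had no spread were skipped. Of the groups searched, 46 held a value whose gap to the nearest other was above Dixon's 95% critical value, against about 1 in 20 groups that chance flags. How many groups were searched was not counted. Of these values 16 were on control array b, 10 on control array a, 7 on control array d, 3 on control array c, 5 on LPS array b, 3 on LPS array d and 1 each on LPS arrays a and c.

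Among the LPS arrays, array b stood apart in Man2b1 (-1.56), P2ry6 (0.486), Parp1 (-1.5), Samhd1 (2.29) and Spry1 (4.67). LPS array d stood apart in Cd22 (-0.767), Galnt12 (-3.08) and Sult1a1 (-3.76), array a in Batf (4.75) and array c in Cth (2.67). For Spry1 the values were 2.69, 4.67, 2.37 and 2.3 on arrays a to d, so array b was the high one, and for Sult1a1 -3.03, -2.91, -2.95 and -3.76, so array d was the low one. None of these LPS values lay within the range of the control arrays, which for the called genes was a condition of being named.

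Control array b stood apart in Bmf (0.405), Csnk1e (0.212), Edn1 (-0.0572), Igf1r (0.383), Phlda3 (0.0513), Rasa3 (-0.0232), Rasgrp1 (-1.14), Rxrb (-0.142), Shisa3 (-0.676), Slamf1 (0.148), Slc11a2 (-0.22), Slc12a2 (0.288), Slc15a3 (-0.312), Slc31a1 (0.0948), Slc37a2 (0.0972) and Sord (0.0825). Control array a stood apart in Bax (-0.138), Bmp2 (-0.229), Hgf (-0.195), Mdh2 (-0.116), Nanog (0.0145), Phka2 (-0.0248), Rnf144b (0.0419), Serpina3f (0.2), Tle1 (-0.224) and Wipf1 (0.225), control array c in Arg2 (0.283), Zfp618 (-0.312) and Zfp811 (-1.42) and control array d in Cdh5 (1.14), Gstt4 (0.395), Itgb8 (-0.302), Lox (0.817), Mthfd2 (-0.0113), Sdc4 (-0.0471) and Vgf (0.64). Zfp811, Rasgrp1, Shisa3, Vgf, Lox, Serpina3f, Slamf1, Itgb8, Gstt4 and Edn1 were below background on all control arrays, so their control ratios are of dim spots.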

How the results depend on the processing

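The fit gave 1783 genes higher and 2039 lower and 3305 probes higher and 3367 lower. With the adjusted p alone and no 2-fold limit, 4214 genes were called higher and 5343 lower, and 7724 and 9023 probes. Fewer probes were called lower with normexp correction (1788) and without background subtraction (1826), where 1382 and 1400 genes were lower and 1512 and 1562 higher. These settings took the call from 37 and 31 of the 399 called genes named here. Some are given with their lists above. Further genes that normexp left uncalled were Lpin3 (-0.74), Slc9a9 (-0.87), Hsd17b4 (-0.88), Fh1 (-0.89) and Kcnq1 (-0.90). Rab27a (-0.92), Pikfyve (-0.93), Pdk2 (-0.95), Icam2 (-0.95), Spr (-0.97) and Got1 (-0.99) were others. Among genes given with a bound, log2 differences with normexp were 0.89 for Has1, 0.91 for Hivep3, 0.79 for Aqp9 and 0.645 for Spry1. They were -0.52 for Plcl1, -0.35 for Smpd3, -0.95 for Poln and -0.98 for Bok. Centring on bright probes, chosen after seeing the data because the planned centring on all probes left every array's median at 0, gave 1909 genes higher and 1865 lower. Leaving out 1 array at a time gave 1736 to 1841 genes higher and 1944 to 2114 lower, and 3203 to 3441 and 3283 to 3452 probes. It ended the call of Scd2, Gpx4 and Spr among the genes named (Gpx4 at -0.99 without LPS d and just under the threshold without control c, Spr at -0.98 without LPS d). The median over a gene's probes took the call from 11 named genes, among them Kdr, Cx3cr1, Acox3, Cnot6l and Sptlc2, and Sgsh turned from 1.51 to -0.78. Zfp618, not called, was at -1.41 in replicates a and b alone. Deviations of LPS and control arrays of 1 letter correlated by 0.0745, 0.0799, 0.0717 and 0.112 for a to d, not all above 0.1, so the letters were not taken as pairs, though every LPS array correlated best with the control array of its own letter. With the replicate as a block 1789 genes were higher and 2039 lower, 3353 probes higher and 3415 lower, and no named gene lost its call. The list counts that moved by over 1.5 times with normexp were decreases in the tricarboxylic acid cycle (6 to 2), phosphoinositide (7 to 3), cyclic nucleotide (12 to 7), other sequence-specific factor (14 to 9), ribosome biogenesis (8 to 3) and lysosomal (11 to 7) lists and increases in the MAP kinase (11 to 7) and nuclear receptor (6 to 3) lists. The cause of these shifts was not tested.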
